A study of Gallus gallus with 4 samples.

Results

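Ion channel genes were examined in chick trunk neural tube cells that had received the trunk homeobox gene Hoxb8. They are the lines of the authors' deposited table with a mean above 0 and a gene symbol of a known channel family. That gave 39 genes among 17108 lines, of which 14861 had a mean above 0. Another 3 channel genes, SCN8A, ASIC1 and AQP2, matched by name but are left out, since the authors' deposited table lists them at 0. The gene just inside that limit was SCN11A, with a mean of 0.238 normalised counts in the authors' deposited table. Only 1432 of the 17108 lines (8.37 percent) carry a symbol, and the current RefSeq chicken gene table holds 277 protein-coding symbols of the same families, so the 39 genes are a minority of the channel repertoire. Calcium channels, glutamate receptors and intracellular calcium release channels had no member, and channel genes without a symbol were not analysed here.

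Polyadenylated RNA was sequenced from 2 Hoxb8 and 2 Control samples. At Hamburger-Hamilton stage 11, a step of the chick staging scale, Hoxb8 embryos received by in ovo electroporation Hoxb8-pCIG at 1 µg/µl together with pCIG at 1 µg/µl, and Control embryos received pCIG at 2 µg/µl. The pCIG plasmid marks the cells that took up DNA with green fluorescent protein (GFP), and GFP-positive live cells were sorted from dissected neural tube 18 hours later in both groups. Neither the number of embryos behind a sample nor any pooling is stated in the labels. The error terms and p-values thus rest on these samples alone, and the spread between them may be technical. In the authors' deposited table the comparison is called Hox against WT, and WT was taken to be the Control group because the labels hold no other. Summed over all lines, the mean level came to 79237283 normalised counts a library. The electroporated gene itself has 0 lines under its symbol, so the direction could not be checked on it. In bulk samples of sorted cells, fewer cells of a type and less RNA per cell cannot be told apart.

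Ion channels are membrane proteins that let ions pass down their gradients and so set the resting potential and the excitability of a cell. Potassium channels are a large group: voltage-gated, inward rectifier, two-pore-domain and calcium-activated members all hold or restore a negative membrane potential. In the embryonic neural tube, progenitors lie at the inner, apical side and are coupled by gap junctions, and neurons acquire voltage- and transmitter-gated channels as they leave that layer and differentiate.

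Of the 39 channel genes, 33 had an adjusted p-value in the authors' deposited table and 4 of them passed an adjusted p under 0.05 (12.1 percent), against 15.2 percent of all 12574 tested genes. The share among channel genes was thus close to that of the tested genes as a whole. Among the 1157 tested genes with a symbol, from which the channel genes came, 17.8 percent passed. At means of 100 to 1000, 2 of 17 channel genes passed (11.8 percent), against 19.0 percent of all 2843 tested genes. The differences between these shares were not tested. Of the 4 called channel genes, 3 were higher in Hoxb8 (KCNG1, KCNK15 and KCNN2), where the background for higher calls was 8.72 percent. The other, KCNJ5, was lower, where the background was 6.49 percent. All 4 were potassium channel genes.

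**Figure D1:**
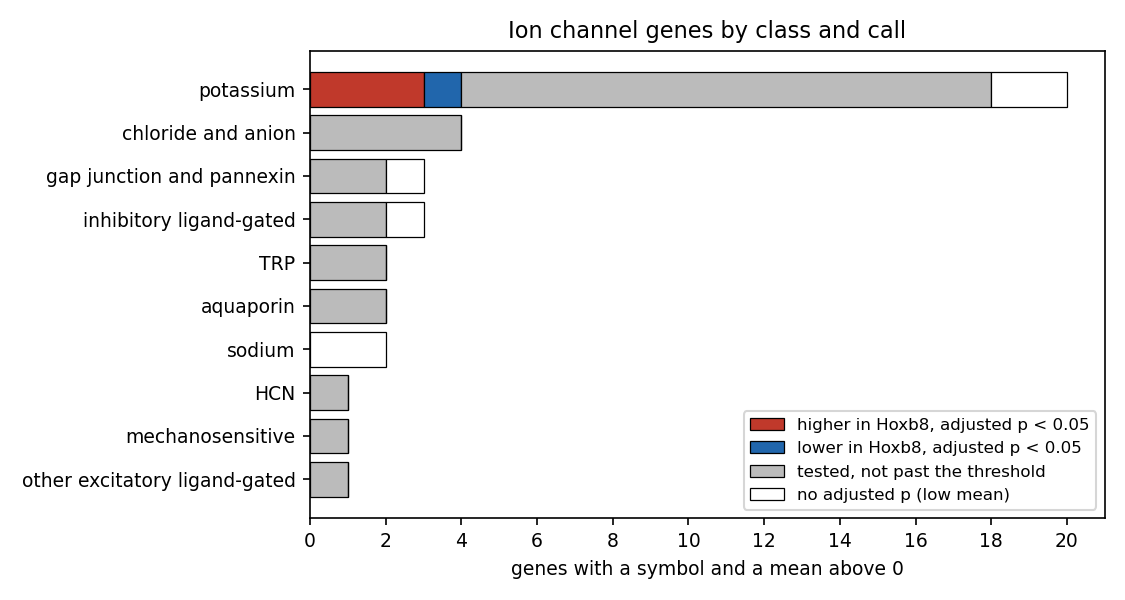
Number of ion channel genes in each class with a symbol and a mean above 0. Red and blue segments are genes past an adjusted p of 0.05 in the authors' deposited table, grey segments tested genes that did not pass, and white segments genes with no adjusted p. The 4 called genes all lie in the potassium bar, which holds 20 of the 39 genes.

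Potassium channels made up 20 of the 39 genes and 18 of the 33 tested ones. Of these 18, the authors' deposited table has 3 that rose and 1 that fell (22.2 percent called, against 15.2 percent of all tested genes). Of the 15 tested genes of the other classes, 0 passed in the authors' deposited table, with 1 at an unadjusted p below 0.05. The difference between these shares was not tested, and a class of 18 genes cannot be called apart from the rest on such counts. The median log2 fold change was 0.14 over the 18 potassium channel genes and 0.071 over the 15 others, against -0.0053 over all tested genes. Set against tested genes with like mean counts, the medians were 0.039 for the 18 and -0.020 for the 15. Within the potassium class, the 8 voltage-gated pore subunit genes had a median log2 fold change of -0.12. The median was 0.44 over 3 tested inward rectifiers and 0.53 over 3 two-pore-domain genes. It was 0.44 over 2 calcium-activated and SLO family genes and -0.045 over 2 tested auxiliary genes. Set against genes of like level, these medians were -0.23, 0.29, 0.38, 0.33 and -0.14 in the same order. Differences between these small groups were not tested.

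The inward rectifiers, which pass potassium more easily into the cell than out of it, held the one gene that fell. KCNJ5 encodes a subunit of the potassium channel that G protein βγ subunits open downstream of neurotransmitter receptors. Its log2 fold change was -1.09 ± 0.16 (standard error, here and below) at a mean of 1022 normalised counts over the 4 libraries, with an adjusted p of 1.77e-09 in the authors' deposited table. Expression in Hoxb8 cells was thus 0.470 times that in Control cells, and the log2 fold change ranked 12 from the lowest of the 12574 tested genes. The pore subunits of the ATP-sensitive potassium channel, which closes when cellular ATP is high, had positive values short of the threshold. KCNJ11 stood at 0.51 ± 0.19 in the authors' deposited table (mean 538, adjusted p = 0.0565) and KCNJ8 at 0.44 ± 0.19 (mean 537, adjusted p = 0.103). Both lay on the opposite side of 0 from KCNJ5, with unadjusted p-values of 0.00900 and 0.0207 in the authors' deposited table. KCNJ4, a strong inward rectifier of neurons and heart, had a mean of only 7.15 and no adjusted p.

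Among the voltage-gated pore subunits, 1 of 8 passed (12.5 percent), against 15.2 percent of all tested genes. KCNG1 encodes a modifier subunit that forms no channel alone and joins the KCNB delayed rectifiers, altering their gating. It rose by 1.03 ± 0.23 log2 units in the authors' deposited table (mean 233, adjusted p = 0.000216), a 2.05-fold difference and rank 231 from the highest of the tested genes. For the other modifiers of the same kind the threshold was missed. In the authors' deposited table KCNG3 stood at 0.27 ± 0.20 (mean 576, adjusted p = 0.389), KCNS1 at -0.052 ± 0.23 (mean 293, adjusted p = 0.918) and KCNS2 at -0.52 ± 0.27 (mean 77.7, adjusted p = 0.196).

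KCNB2, which forms a delayed rectifier pore that these modifiers enter, was measured too. It lay at -0.19 ± 0.15 on the log2 scale per the authors' deposited table (mean 1592, adjusted p = 0.456), with a 95% interval of -0.49 to 0.11. The rise of KCNG1 was therefore not accompanied by a call for this pore partner, whose interval leaves out a rise of the size seen for KCNG1. In the same group KCNC2, a fast-deactivating channel of rapidly firing neurons, stood at 0.13 ± 0.19 (mean 759, adjusted p = 0.713) in the authors' deposited table.

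All 3 two-pore-domain genes, which encode background leak channels, had positive values, against 49.1 percent of all tested genes. Positive values were not particular to them, with 12 of the 15 tested genes outside the potassium class also above 0. Over all tested genes the median log2 fold change was itself positive at such counts, 0.067 at means under 100 and 0.15 at 100 to 1000. Of the 3 two-pore-domain genes, 1 passed, against 15.2 percent of all tested genes. KCNK15 belongs to the acid-sensitive TASK group of these channels, and its mammalian product gave no current of its own when expressed alone. It rose by 0.80 ± 0.27 log2 units in the authors' deposited table, a 1.74-fold difference at a low mean of 71.8 (adjusted p = 0.0225). KCNK12, whose product belongs to the halothane-inhibited THIK group, stood at 0.53 ± 0.21 (mean 414, adjusted p = 0.0635), and KCNK3, the TASK group founder, at 0.14 ± 0.24 (mean 29.9, adjusted p = 0.763) in the authors' deposited table.

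Of the calcium-activated and SLO family genes 1 of 2 passed, against 15.2 percent of all tested genes. KCNN2 encodes a small-conductance channel that calcium opens through calmodulin and that shapes the afterhyperpolarisation of neurons. It rose by 0.65 ± 0.19 log2 units in the authors' deposited table (mean 598, adjusted p = 0.00705), a 1.57-fold difference. KCNU1, an SLO family channel known from mouse sperm, stood at 0.22 ± 0.23 in the authors' deposited table (mean 27.7, adjusted p = 0.593).

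Genes of auxiliary and regulatory proteins lay close to 0. KCNIP4, a calcium-binding partner of A-type potassium channels, lay at 0.016 ± 0.18 log2 units in the authors' deposited table (mean 1441, adjusted p = 0.967). KCNRG, a soluble protein that suppresses assembly of voltage-gated channels, was at -0.11 ± 0.18 there (mean 627, adjusted p = 0.768). The 95% intervals reached from -0.33 to 0.36 for KCNIP4 and from -0.46 to 0.25 for KCNRG, so changes of 2-fold lay outside both. KCNE3, a single-span auxiliary subunit, had a mean of 11.6 and no adjusted p.

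**Figure D2:**
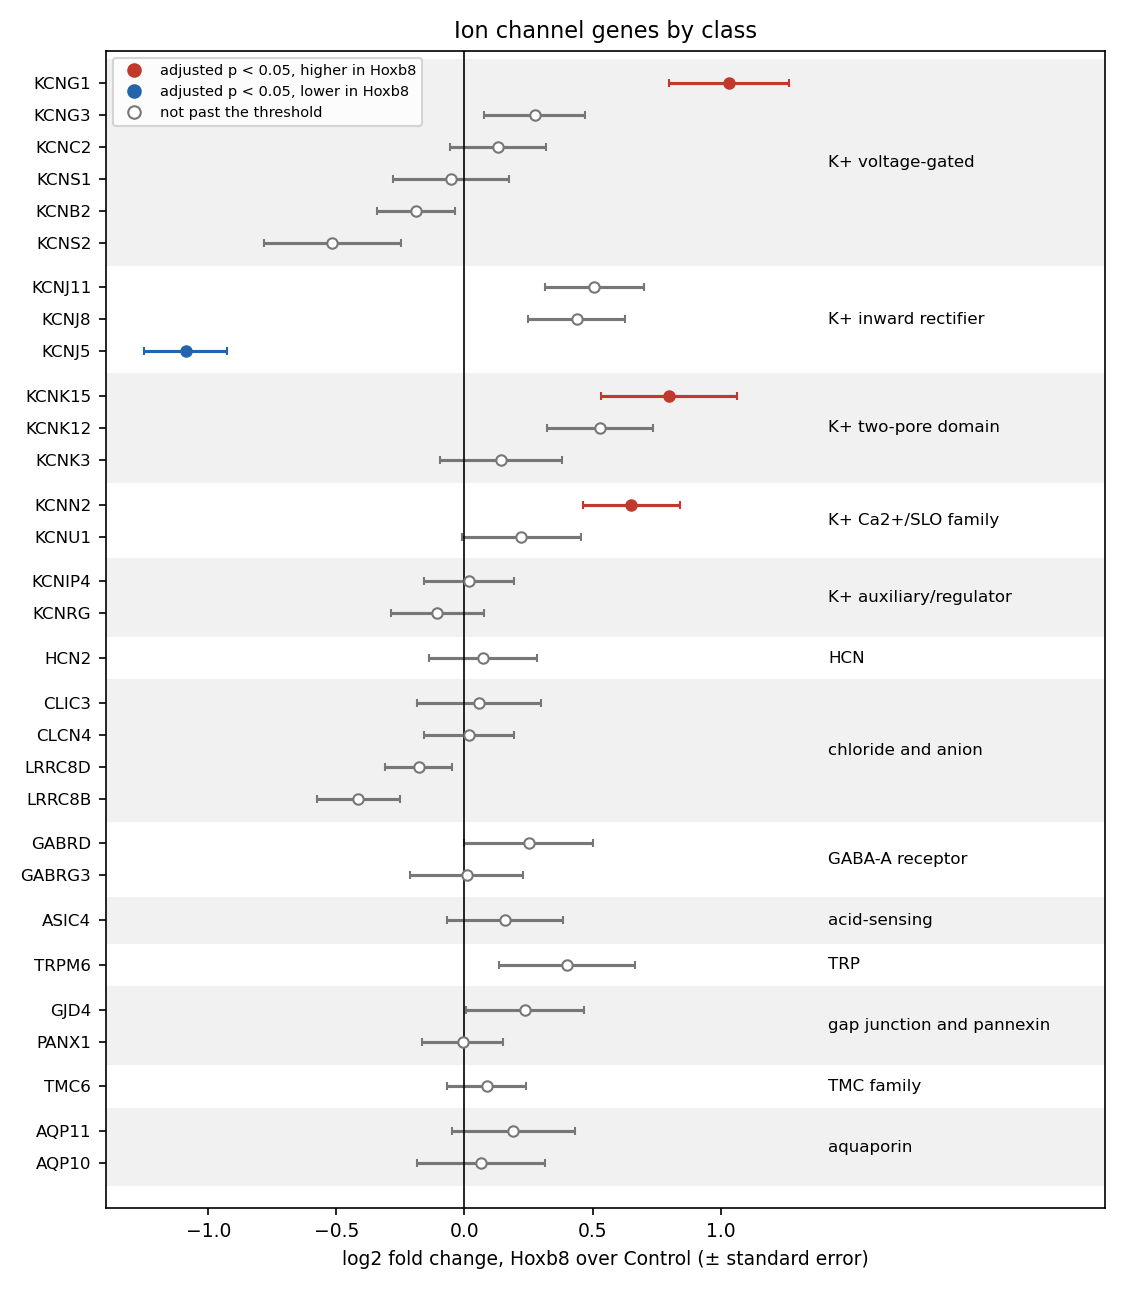
Log2 fold change of Hoxb8 over Control with its standard error for 30 of the 33 tested ion channel genes, from the authors' deposited table, grouped by class. Filled symbols passed an adjusted p of 0.05. KCNJ5 stands apart on the left at -1.09 and KCNG1 reaches 1.03 on the right, while the non-potassium genes lie between -0.41 and 0.40.

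Of the 4 chloride and anion channel genes 0 passed in the authors' deposited table, while 1 had an unadjusted p below 0.05. Over all tested genes these shares were 15.2 and 26.7 percent. LRRC8 proteins build the volume-regulated anion channel that swollen cells open, with LRRC8A as the obligatory subunit and the others as partners. LRRC8B, which had the highest mean count of the 33 (5482, not corrected for gene length), stood at -0.41 ± 0.16 in the authors' deposited table (unadjusted p = 0.0102, adjusted p = 0.0617). LRRC8D was also below 0, at -0.18 ± 0.13 in the authors' deposited table (mean 5165, adjusted p = 0.407). The standard error of LRRC8B was 1.25 times the median of tested genes of like level, the highest such ratio of the 33, which ranged from 0.910 upward. CLCN4, an endosomal chloride/proton exchanger, was at 0.018 ± 0.18 (adjusted p = 0.963) and CLIC3, of the intracellular chloride channel family, at 0.055 ± 0.24 with a mean of 34.8 (adjusted p = 0.918), both in the authors' deposited table.

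Transmitter-gated and related channels were few and 0 of 3 passed in the authors' deposited table, nor did any have an unadjusted p below 0.05. Over all tested genes these shares were 15.2 and 26.7 percent. GABRD, the subunit of extrasynaptic GABA-A receptors that carry tonic inhibition, stood at 0.25 ± 0.25 in the authors' deposited table (mean 161, adjusted p = 0.573). GABRG3, another GABA-A receptor subunit, was at 0.0089 ± 0.22 (mean 20.2, adjusted p = 0.987) and the acid-sensing family gene ASIC4 at 0.16 ± 0.23 (mean 318, adjusted p = 0.717) in the authors' deposited table. GABRB1, which supplies a β subunit to the same receptors, had a mean of 2.02 and no adjusted p.

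The cation channels of the TRP and HCN families gave 0 calls among 3 in the authors' deposited table, with 0 also by unadjusted p below 0.05. Over all tested genes these shares were 15.2 and 26.7 percent. TRPM6, a magnesium-permeable channel fused to a kinase, had the highest log2 fold change outside the potassium class, 0.40 ± 0.27 per the authors' deposited table (mean 117, adjusted p = 0.349). HCN2, a pacemaker channel opened by hyperpolarisation and cyclic AMP, was at 0.071 ± 0.21 (mean 399, adjusted p = 0.876) in the authors' deposited table.

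Gap junction, pannexin, TMC and aquaporin genes likewise gave 0 calls among 5 tested in the authors' deposited table, with 0 also by unadjusted p below 0.05. Over all tested genes these shares were 15.2 and 26.7 percent. PANX1, which forms single-membrane pores that release ATP, was the member closest to 0, at -0.0066 ± 0.16 in the authors' deposited table (mean 1304, adjusted p = 0.987). Its 95% interval ran from -0.32 to 0.30. The connexin gene GJD4 stood at 0.24 ± 0.23 (mean 22.6, adjusted p = 0.559) and TMC6, of the transmembrane channel-like family, at 0.087 ± 0.16 (mean 2179, adjusted p = 0.777) in the authors' deposited table. Of the aquaporins, AQP11, which lies in intracellular membranes, was at 0.19 ± 0.24 (mean 207, adjusted p = 0.668), and AQP10, which also passes glycerol, at 0.064 ± 0.25 (mean 40.5, adjusted p = 0.909), both in the authors' deposited table.

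The sodium channel genes had no deposited adjusted p. SCN10A, known in mammals from pain-sensing neurons, had a log2 fold change of -0.018 ± 0.21 at a mean of 17.2 normalised counts, with an unadjusted p of 0.929 in the authors' deposited table. SCN11A, known from the same neurons, was at 0.027 ± 0.052 with an unadjusted p of 0.598 and a mean of 0.238 in the authors' deposited table. The mean of SCN11A was held by 61 genes, SCN11A included, and only 26 genes had a lower mean above 0, which places it at the smallest steps in the table. These 2 genes, KCNJ4, KCNE3 and GABRB1 were among the 6 channel genes below the authors' filter on the mean, of which 0 had an unadjusted p under 0.05 in the authors' deposited table.

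At an unadjusted p under 0.05 there were 8 of the 33 channel genes, 7 of them potassium channel genes, against 26.7 percent of all tested genes. A total of 7 of the 33 had a log2 fold change of at least 0.5 in size in the authors' deposited table, all 7 of them potassium channel genes, against 12.2 percent of all tested genes. That share was not compared at like counts. Over all tested genes the median standard error was 0.22 at means of 100 to 1000 and 0.14 at 1000 to 10000. Positive values were found for 23 of the 33, or 69.7 percent, against 49.1 percent of all tested genes and 54.3 percent of those with a symbol. Channel genes had lower mean counts than most genes, however, with a median mean of 399 against 2335 over all tested genes, and genes at such counts had positive values more often. At means of 100 to 1000 the median log2 fold change was 0.19 over 17 channel genes and 0.15 over all 2843 tested genes, whereas at means of 1000 to 10000 it was -0.18 over 7 channel genes and -0.019 over all 6121. Set against the median of tested genes of like level, 15 of the 33 lay above it, and the median of the 33 was -0.011. The fold changes of the channel genes were thus centred where those of other genes with like counts were.

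**Figure D3:**
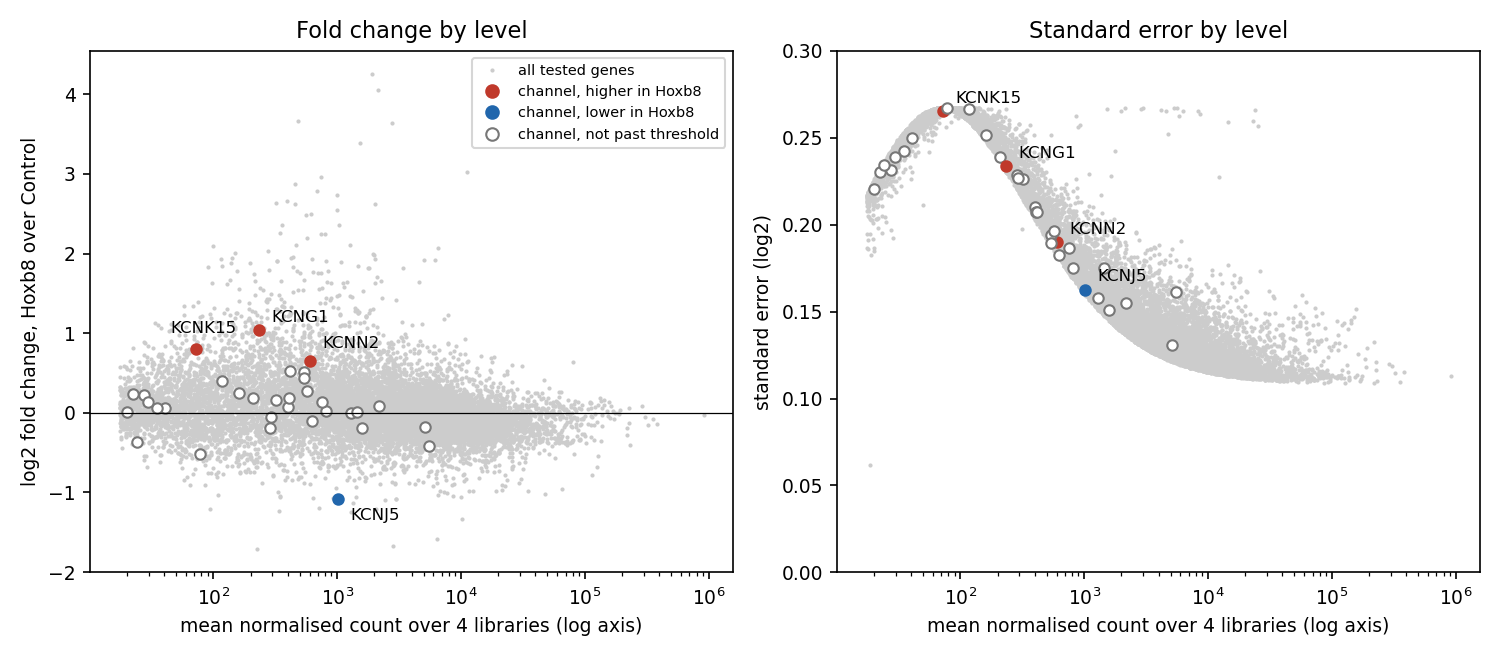
Log2 fold change of Hoxb8 over Control (left) and its standard error (right) against the mean normalised count over the 4 libraries on a log axis, from the authors' deposited table. Grey points are all 12574 tested genes and large symbols the 33 tested channel genes. KCNJ5, at a mean of 1022, lies at the lower edge of the grey cloud, and most channel genes lie at means under 1000, where standard errors are high.

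The size of change that could be called depended on that level. A gene passed when its log2 fold change exceeded 2.67 standard errors, which corresponds to 0.35 for LRRC8D, with the smallest standard error of the 33 tested channel genes, and to 0.71 for KCNS2, with the largest. For 23 of the 33 the needed size was above 0.5. Of the 29 channel genes that did not pass, 28 had a 95% interval within 1 of 0 on the log2 scale, the exception being KCNS2 (-1.04 to 0.0077), but only 11 had an interval within 0.5 of 0. The deposited fold changes are moderated toward 0, so these intervals may understate changes of genes at low means.

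The calls differed in how firmly they held. With the deposited scores divided by their central spread over all tested genes, 1.69, KCNJ5 was the 1 channel gene called (adjusted p = 0.00594), against 2.48 percent of all tested genes, while KCNG1 (0.196), KCNN2 (0.492) and KCNK15 (0.642) did not pass. That division treats the whole spread as error, although real changes may widen it too. A call lost there thus does not show that a change is absent. With fold changes set against genes of like level, KCNN2 and KCNK15 also lost their calls, at log2 fold changes of 0.49 and 0.71 and adjusted p-values of 0.0683 and 0.0542, and KCNG1 kept its call. Under that centring 2 of the 33 passed, against 12.7 percent of all tested genes. With the median of genes over a mean of 10000, which was -0.125, set to 0, KCNJ11, KCNJ8 and KCNK12 passed as higher (adjusted p = 0.0102, 0.0217 and 0.0134), for 7 calls of 33 against 17.6 percent of all tested genes. Against genes of like level, KCNJ11, KCNJ8 and KCNK12 stood at log2 fold changes of 0.36, 0.29 and 0.38. Their adjusted p-values in that setting were 0.245, 0.363 and 0.248, short of the threshold. At an adjusted p under 0.1 the 33 held 7 calls, against 19.8 percent, and at under 0.01 they held 3, against 9.42 percent. At a mean of at least 500 there were 2 calls among 14 channel genes, against 16.9 percent.

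**Figure D4:**
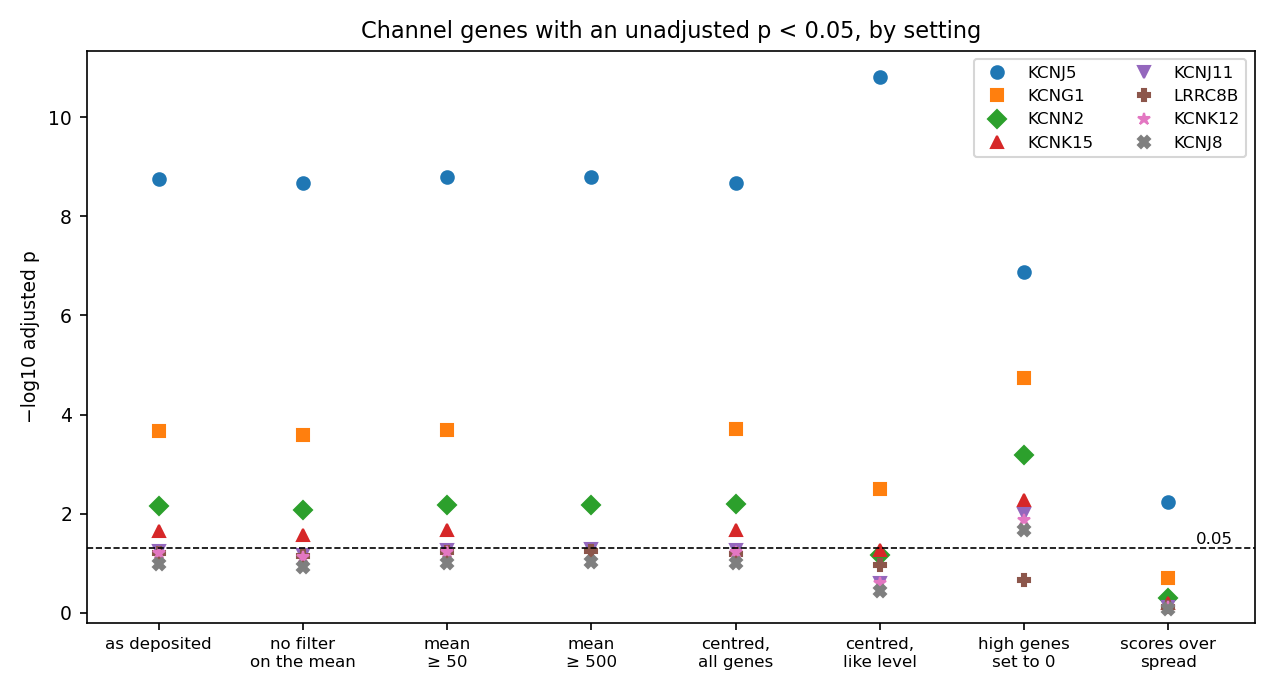
Adjusted p on a −log10 axis for the 8 channel genes with an unadjusted p under 0.05, under the deposited analysis and 7 other settings at the same threshold of 0.05 (dashed line). KCNJ5 lies above the line in each of the 8 columns, KCNG1 falls below it with scores divided by their spread, and KCNN2 and KCNK15 also with fold changes set against genes of like level. KCNK15, KCNG1 and KCNK12 have no point at a mean of at least 500.

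Related genes outside the naming rule were sparse in the table. Of 49 listed channel genes of other names, 4 had a symbol in the table and 1 was tested, the endoplasmic reticulum potassium channel gene TMEM38B, with -0.23 ± 0.13 log2 units per the authors' deposited table (adjusted p = 0.225). Of 71 listed auxiliary, scaffold and calcium-buffer genes 3 were tested and 1 rose, the calretinin gene CALB2, with 1.75 ± 0.24 log2 units per the authors' deposited table (adjusted p = 7.23e-11). Over all tested genes 8.72 percent passed as higher. The list was chosen with earlier results of these data known, so this call of a calcium-buffer gene is no result about channels. The glutamate receptor auxiliary gene SHISA6 was at -0.21 ± 0.27 (adjusted p = 0.682) and the postsynaptic scaffold gene SHANK3 at -0.010 ± 0.15 (adjusted p = 0.978) in the authors' deposited table.

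The neural identity of the labelled tissue could not be checked on marker genes. Of 60 marker genes for neurons, neural progenitors, neural crest, muscle and somite, blood and endothelium, and surface ectoderm, 4 had a symbol in the table and 3 were tested, none of them a marker of neurons or progenitors. The neuronal gene NEUROD4 was listed at 0. LMO2, from the blood and endothelium list, rose by 1.48 ± 0.17 log2 units in the authors' deposited table (adjusted p = 4.50e-16). PECAM1 of the same list was at -0.028 ± 0.27 (mean 1998, adjusted p = 0.963). Its standard error was high for its level, since the median over all tested genes at means of 1000 to 10000 was 0.14. PECAM1 thus gives only a loose estimate. The surface ectoderm gene GRHL2 was at -0.49 ± 0.26 (adjusted p = 0.223). Whether the numbers of neurons or of other cells moved with the channel genes was not tested.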

How the data were processed

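The only file was the authors' deposited result table, Hox against WT, which lacks values for single libraries. Per the submitters' processing notes, galGal4, Subread, featureCounts, DESeq and DESeq2 are named, without roles or versions. The strand setting of the counting is not stated in the labels, so reads of a gene and of an antisense, overlapping or near-identical gene may be mixed. Per the labels' protocols, libraries were built from linearly amplified cDNA. Levels are the deposited signal of the authors, a mean over the 4 libraries of normalised counts. The authors' log2 fold changes and standard errors are on the log2 scale, and their Wald score equals the ratio of both (largest deviation 9.24e-14). The deposited p-values were recomputed from that score (largest deviation 2.78e-15) and the adjusted p-values as Benjamini-Hochberg values over 12574 genes (1.89e-15). A further 2287 genes, below a mean between 17.47 and 17.49, lacked an adjusted p. Standard errors were at most 0.267 and had a median of 0.114 below that limit, so fold changes are moderated toward 0.

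The members and gene lists were chosen with earlier results of these data known, and the voltage-gated class was widened to the KCNB genes after the table was read. Named genes are the members, of which 4 enter the counts but are not reported here by name, those past an adjusted or unadjusted p of 0.05 with full statistics, and up to 4 genes of each other list. The 95% intervals are normal intervals from the deposited standard errors. Like level means 1 of 25 bins of the mean with equal numbers of tested genes. Symbols come from the table, and 36 of the 39 are in RefSeq's gene table of assembly GRCg7b. No coordinates are given, since that build differs from the one named by the submitters. Adjustment and centring were tested on simulated data with a shift common to all genes and noise of the size of the deposited standard errors. A shift that changes with the mean, as in these data, was not simulated. Python 3.11.15, numpy 2.4.6, pandas 2.3.3, scipy 1.17.1 and matplotlib 3.10.9 were used.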

Additional observations from a re-analysis of the deposited data

How the results depend on the processing

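No paired analysis was possible because the file used holds a single mean per gene over all 4 libraries. For the same reason leaving out single libraries, other normalizations and count models were not run. As deposited, 4 of 33 tested channel genes passed (3 higher, 1 lower), all potassium channel genes. That became 7 at an adjusted p under 0.1 (5 higher, 2 lower, with LRRC8B as 1 call in the chloride and anion class) and 7 with the median of genes over 10000 set to 0 (6 higher, all 7 potassium). It became 2 at a mean of at least 500, where 14 channel genes were tested (1 higher, both potassium), 2 set against genes of like level (1 higher, both potassium), and 1, a potassium gene, with scores divided by their spread (0 higher). At an adjusted p under 0.01 KCNK15 lost its call. Centred on all genes, with no filter, or at a mean of at least 50, the 4 called genes kept their calls. KCNJ5 passed in all 10 settings, with adjusted p-values up to 0.00594. The highest were 0.196 for KCNG1, 0.492 for KCNN2 and 0.642 for KCNK15. The median log2 fold change of the channel genes ranged from -0.0111 against genes of like level to 0.212 with high genes at 0. Directions reversed only in genes that never passed: against genes of like level HCN2 (-0.0759), KCNC2 (-0.0272), ASIC4 (-0.0449), KCNIP4 (-0.00686), CLCN4 (-0.0998), GABRG3 (-0.0486), AQP10 (-0.0111) and CLIC3 (-0.0199), and with high genes at 0 KCNS1 (0.0732), KCNRG (0.0188) and PANX1 (0.118), where the deposited values were smaller than the shift applied. The 6 channel genes below the authors' filter had means of at most 17.2 and no deposited adjusted p.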
